A study of Mus musculus with 6 samples.

Results

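The genes described here are 34 genes of G2 and mitosis: mitotic cyclins and CDK1, mitotic and checkpoint kinases, regulators of the anaphase-promoting complex, kinesins, centromere and kinetochore proteins, spindle proteins, cytokinesis proteins and 2 proteins of the mitotic chromosome. They were taken by symbol from a given list whose rule uses no measured value, and all 34 were found among the 40879 genes of the count table. The list was made with earlier results of these data known. Poly-A RNA was sequenced from CD8 T cells among tumour-infiltrating lymphocytes (TILs) that flow cytometry sorted by a biotin label. The tumours were MC38-hPD-L1, a mouse colon carcinoma line that carries human PD-L1 according to its name, at day 12 in C57BL/6N mice. Biotin+ cells (3 libraries) are described as neighbours of tumour cells, and Biotin- cells (3 libraries) as distal to them. Both groups share tumour, strain and day. The sources used here do not give how the biotin was attached, the age or number of the animals, or whether they were pooled. Since the replicates may not be separate animals, a p-value here covers only the variation among these 6 libraries, which could be technical.

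As background, a dividing T cell copies its DNA in S phase, builds up cyclins A and B with CDK1 in G2, and then passes through mitosis, in which kinesins and kinetochores move chromosomes and the anaphase-promoting complex destroys cyclin B. The genes of this programme are transcribed late in the cycle, when B-MYB, FOXM1 and the MuvB complex act at a promoter element called the cell cycle homology region, often together with NF-Y bound to CCAAT boxes. CD8 T cells divide rapidly after they meet antigen, and transcripts of these genes are commonly used to mark dividing cells. In bulk RNA such as this, fewer dividing cells and less of the transcript in each cell cannot be told apart.

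Library totals were 16423106 to 19640693 counts. No molecular identifiers are named, so several reads can stem from 1 molecule. All 34 genes passed the filter on low counts, and their lowest count was 48, for Ttk. Levels are CPM, counts scaled to library size, with TMM factors, which correct for a few genes that take up much of a library. Log2 fold changes are Biotin+ minus Biotin-. Markers of CD8 T cells were present in every library, with Cd8a at 1226, 1289 and 1162 CPM in Biotin+ and 591, 865 and 502 CPM in Biotin-, and 5 of the 15 CD8 T identity genes were higher in Biotin+ (edgeR adjusted p under 0.05). With the replicate number as a block 13 of the 15 were higher, and with 1 library left out 0 to 6 were (0 without Biotin- replicate 1 or 3, 1 without Biotin+ replicate 2). Markers of other cells were present too. Fibroblast and endothelial markers summed to 82.5 to 213 CPM of the whole library in Biotin+ and 747 to 1136 CPM in Biotin-, and macrophage and monocyte markers to 404 to 1217 and 935 to 3688 CPM. Sums for epithelial and tumour markers were 31.6 to 144 CPM in Biotin+ and 25.1 to 69.2 CPM in Biotin-, with Krt7 at 0 in every library. Dendritic cell markers summed to 461 to 1077 and 461 to 1298 CPM, and NK and gamma delta T markers (5 of 7 found) to 46.1 to 133 and 66.4 to 159 CPM. B cell markers summed to 41.8 to 61.9 and 47.1 to 93.8 CPM, CD4 T markers to 29.9 to 41.4 and 30.7 to 57.8 CPM, neutrophil markers to 2.98 to 14.4 and 3.78 to 8.93 CPM, and erythroid markers to 1.16 to 5.33 and 1.21 to 6.04 CPM. The share of these cells' RNA in the values of the 34 genes was not tested.

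The promoters of 5 of the genes are shown as examples, chosen with their values known. Anln passed the test, and Ccnb1 and Cdc20 passed it once a single library was left out. Cdk1 and Ube2c were among the genes that differed most between replicates. Stmn1 also passed with a single library left out, but had no RefSeq promoter entry. Each line gives the 120 bases before the RefSeq gene start, 5′ to 3′ on the gene's strand, with its place in GRCm38.p6, a build other than that of the counts. Capitals mark the core of the cell cycle homology region (TTTGAA, or TTCAAA on the other strand) and the CCAAT box (CCAAT, or ATTGG on the other strand), and no 2 marked motifs overlap.
Anln, chr9:22389207-22389326, minus strand: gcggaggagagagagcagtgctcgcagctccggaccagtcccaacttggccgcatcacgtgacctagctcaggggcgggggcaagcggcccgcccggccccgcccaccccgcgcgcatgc
Ccnb1, chr13:100786487-100786606, minus strand: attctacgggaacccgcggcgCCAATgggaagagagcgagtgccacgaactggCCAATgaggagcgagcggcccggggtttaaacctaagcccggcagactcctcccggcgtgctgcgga
Cdc20, chr4:118437344-118437463, minus strand: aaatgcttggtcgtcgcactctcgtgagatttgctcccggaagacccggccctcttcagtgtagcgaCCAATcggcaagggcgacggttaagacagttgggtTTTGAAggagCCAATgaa
Cdk1, chr10:69352913-69353032, minus strand: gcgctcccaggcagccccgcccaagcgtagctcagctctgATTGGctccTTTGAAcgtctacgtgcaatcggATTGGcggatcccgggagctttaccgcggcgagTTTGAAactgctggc
Ube2c, chr2:164769809-164769928, plus strand: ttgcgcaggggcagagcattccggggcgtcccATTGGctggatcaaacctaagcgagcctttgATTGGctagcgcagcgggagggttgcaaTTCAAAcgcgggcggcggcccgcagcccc

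The RefSeq table held promoters of 29 of the 34 genes, without entries for Ccna2, Aurkb, Kif20a, Tpx2 and Stmn1. In windows of 300 bases, from 250 before to 50 after the start, TTTGAA on either strand was found in 23 of 29 (79.3%), against 20.2% of all 27025 promoters and 14.9% of the 10357 promoters of tested genes. CCAAT on either strand was found in 22 of 29 (75.9%), against 41.1% of all and 42.7% of tested promoters. Both motifs were in 19 of 29 (65.5%), against 8.97% of all promoters. A further 68 mitosis genes had 56 promoters in the table, of which 58.9% held TTTGAA, 75% held CCAAT and 50% held both. Among the promoters printed, Cdc20, Cdk1 and Ube2c show both motifs, Ccnb1 shows CCAAT alone and Anln shows neither. In the 300-base window Anln had 2 matches to TTTGAA, both outside the printed bases. Nusap1, not printed, had neither motif in its window. It differed more in Biotin+ replicate 2 than Cdk1 did (3.59-fold against 3.51-fold the mean of the other Biotin+ libraries). The motifs are matches of letters and no measure of binding.

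Between the groups, 1 of the 34 genes passed the test, and it was lower in Biotin+: Anln, which encodes the actin-binding protein anillin of the cleavage furrow. The other 33 did not pass, and none was higher (edgeR quasi-likelihood test, Benjamini-Hochberg adjustment over 13360 tested genes, threshold 0.05). Of all tested genes, 1.53% were called higher and 6.72% lower, so 1 of 34 lower is not above the background. DESeq2 and limma-voom each called 0 of the 34 higher and 1 lower as well, against 3.53% and 1.61% of all tested genes higher and 10.4% and 6.78% lower. At an unadjusted p under 0.05, 1 gene was higher (Stmn1) and 2 were lower (Anln and Ccnb1), or 3 of 34 against 22.6% of all tested genes. The median log2 fold change of the 34 genes was 0.11, and 20 were positive, beside a median of 0.06 over all tested genes. The group ranges did not overlap for 4 of 34 genes (Anln, Ccnb1, Cenpf and Ect2, all lower in Biotin+), against 29.2% of all tested genes, or 15.9% in the lower direction. The plot of fold changes sets these values beside those without 1 library.

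**Figure D1:**
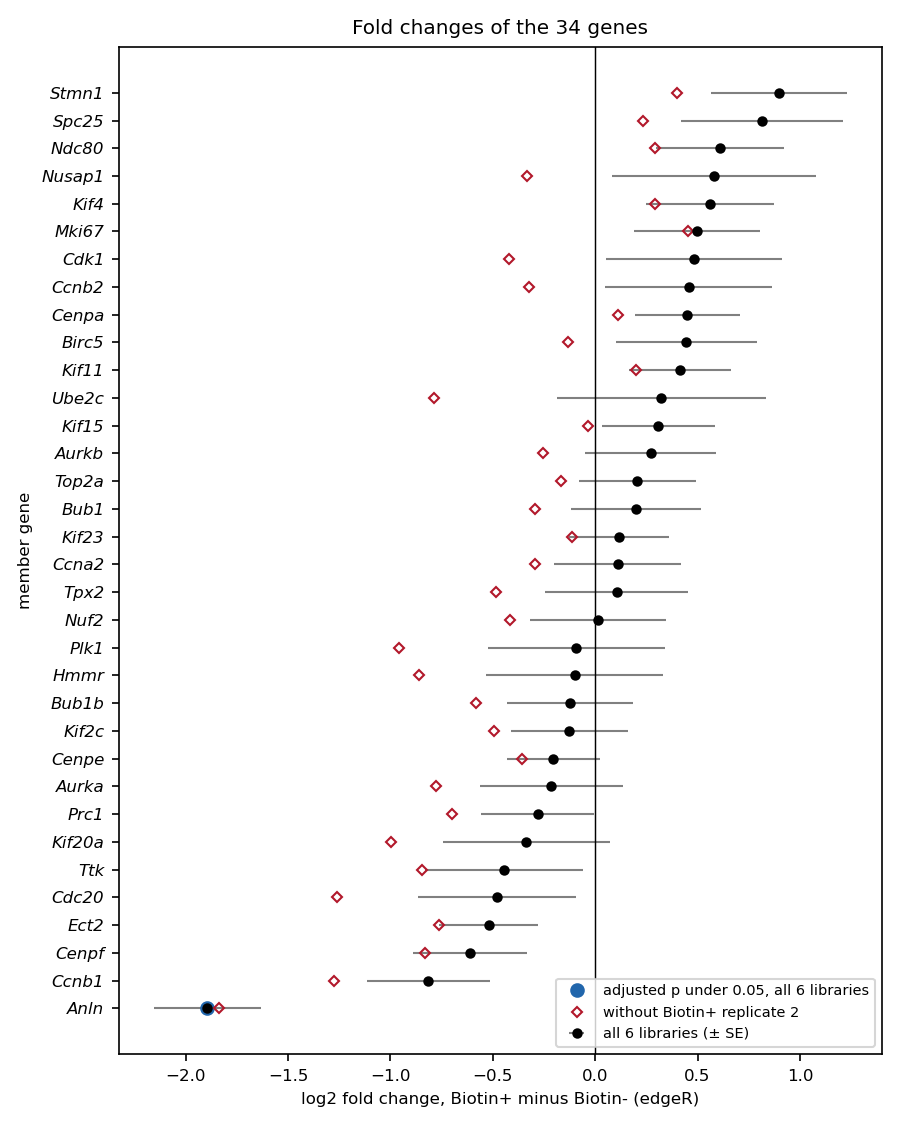
Log2 fold change (Biotin+ minus Biotin-) of the 34 genes in rank order, from edgeR. Black points with bars are the values over 6 libraries ± SE, and open diamonds the values without Biotin+ replicate 2. The larger blue point is Anln, which passed the test. The points run from -1.89 for Anln to 0.90 for Stmn1, and the diamonds lie to the left for every gene except Anln.

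Anln stood at 17.4, 13.1 and 14.8 CPM in Biotin+ and 57.6, 39.2 and 71.9 CPM in Biotin- (replicates 1, 2 and 3 of each group, in this order here and below). Every Biotin- library was above every Biotin+ library, and the lowest Biotin- library was above the highest Biotin+ library by more than the whole Biotin+ range. The means were 15.1 ± 2.13 (SD, n = 3) in Biotin+ and 56.2 ± 16.4 CPM (SD, n = 3) in Biotin- (log2 fold change -1.89 ± 0.26 (SE), edgeR adjusted p = 0.00603, lower in 3 of 3 pairs of equal number). It passed in all 22 alternative analyses, with edgeR, DESeq2 or limma-voom adjusted p from 2.73e-11 to 0.0379. Anln differed from the other 33 genes in its libraries too: it was the only one of the 34 with its lowest level in Biotin+ replicate 2. Its direction was that of the fibroblast and endothelial markers, of which 6 of 11 tested were lower in Biotin+ and none higher (edgeR adjusted p under 0.05, median log2 fold change -2.48 against 0.06 for all tested genes), led in level by Col3a1, Col1a1 and Dcn. With the replicate number as a block, 9 of the 11 were lower. Dcn, a proteoglycan of fibroblast matrix, stood at 22.3, 19.3 and 25.6 CPM in Biotin+ and 122, 114 and 139 CPM in Biotin-. None of the 15 markers on the list was at 0 in all libraries, and the part of these cells in the Anln difference was not tested.

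Levels varied more between the Biotin+ than between the Biotin- libraries for 32 of the 34 genes (SD of log2 CPM), against 63.2% of all tested genes. Biotin+ replicate 2 had the highest level of the 6 libraries for 28 of 34 genes, against 27.5% of all tested genes, and Biotin+ replicate 3 had the lowest for 20. The 6 genes with another highest library were Ccnb1, Cenpe, Cenpf, Anln and Ect2, each highest in a Biotin- library, and Mki67, highest in Biotin+ replicate 1. The 34 genes together held 0.147%, 0.223% and 0.119% of all counts in Biotin+ and 0.161%, 0.178% and 0.154% in Biotin-. The means were 0.163% ± 0.0537 and 0.164% ± 0.0121 (SD, n = 3 each), and the Biotin+ libraries ranged on both sides of all Biotin- libraries. The heat map of levels by library shows this pattern gene by gene.

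**Figure D2:**
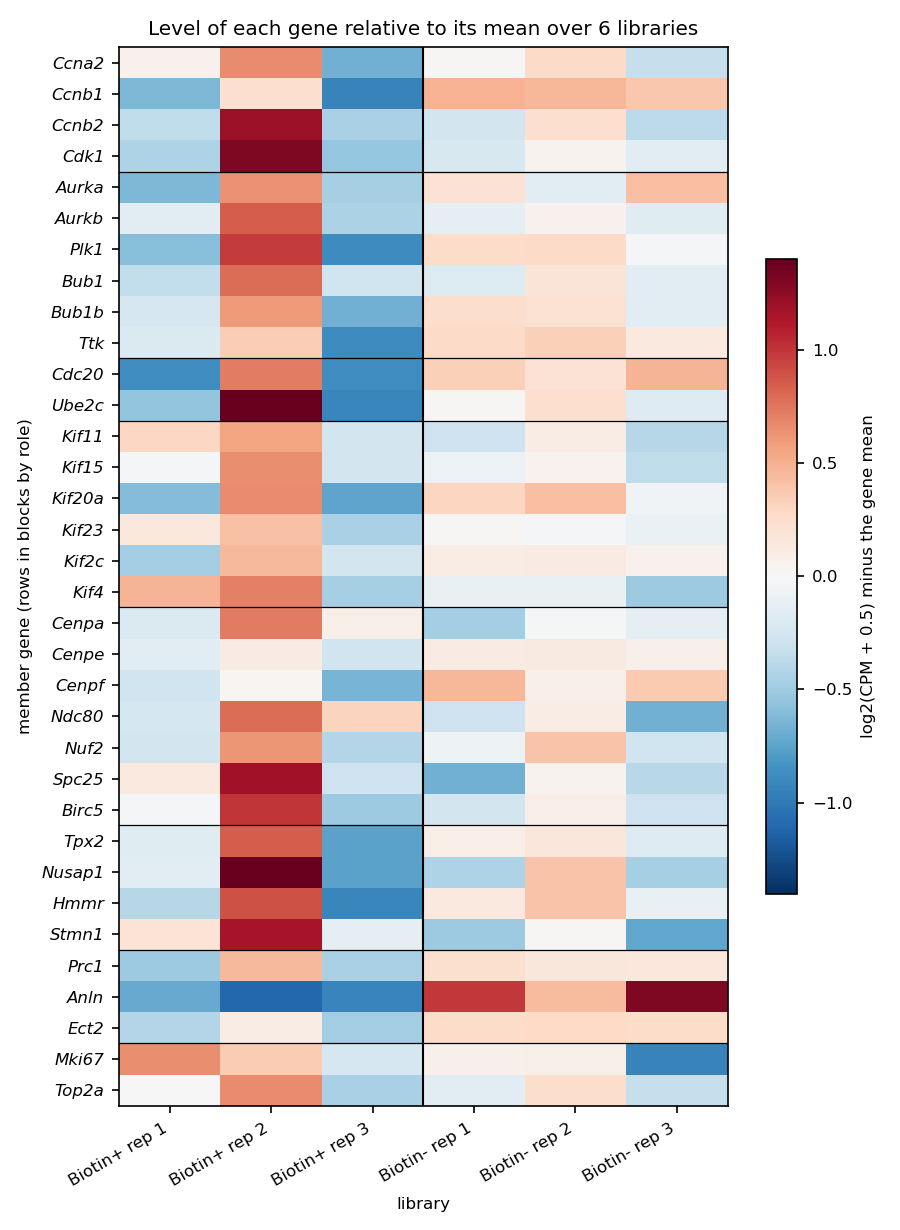
Heat map of log2(CPM + 0.5) of each gene minus its mean over 6 libraries, with genes in rows by role and libraries in columns. Red is above and blue below the gene's mean. The Biotin+ replicate 2 column is red for nearly all genes and blue for Anln, while Biotin+ replicates 1 and 3 are mostly blue.

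Among the cyclins and CDK1, Cdk1, the kinase that drives entry into mitosis, stood at 41.2, 139 and 38.1 CPM in Biotin+ and 47.7, 58.1 and 50.4 CPM in Biotin-. Its partner Ccnb2, a B-type cyclin, stood at 36.5, 109 and 34.2 CPM in Biotin+ and 39.0, 55.4 and 36.3 CPM in Biotin-. Biotin+ replicate 2 was above all Biotin- libraries for both, while Biotin+ replicates 1 and 3 were below them for Cdk1 and near the lowest of them for Ccnb2 (log2 fold change 0.48 ± 0.43 (SE), edgeR adjusted p = 0.555 and 0.46 ± 0.41 (SE), adjusted p = 0.555). Ccna2, the A-type cyclin of S phase and G2, stood at 67.3, 103 and 40.3 CPM in Biotin+ and 65.3, 78.1 and 51.7 CPM in Biotin-, with a log2 fold change of 0.11 ± 0.31 (SE). Ccnb1, the main mitotic cyclin, differed in pattern from these 3. It stood at 16.4, 30.4 and 13.1 CPM in Biotin+ and 36.2, 35.6 and 33.6 CPM in Biotin-, so that all Biotin+ libraries were below all Biotin- libraries, which lay close together (log2 fold change -0.81 ± 0.30 (SE), edgeR adjusted p = 0.134). With the replicate number as a block in the fit, Ccnb1 was lower in Biotin+ (-0.90 ± 0.25 (SE), edgeR adjusted p = 0.0167). The ratio of Ccnb1 to Ccna2, chosen after the values were seen, was 0.244, 0.296 and 0.326 in Biotin+ and 0.555, 0.456 and 0.651 in Biotin-, without overlap. The ratio of Cdc20 to Mki67, computed alongside it, was 0.177, 0.661 and 0.329 in Biotin+ and 0.619, 0.560 and 1.38 in Biotin-, and overlapped. Neither ratio depends on how the libraries are scaled.

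Of the mitotic kinases, Plk1 (polo-like kinase, active from entry to cytokinesis) stood at 14.1, 43.4 and 11.6 CPM in Biotin+ and 26.0, 26.3 and 21.2 CPM in Biotin-. Aurka, the centrosomal Aurora kinase, stood at 12.5, 30.9 and 14 CPM in Biotin+ and 22.6, 17.6 and 26.4 CPM in Biotin-. In both genes Biotin+ replicates 1 and 3 were below all Biotin- libraries, and Biotin+ replicate 2 was above them. Aurkb, the Aurora kinase of the chromosomal passenger complex, stood at 26.5, 53.9 and 21.6 CPM in Biotin+ and 27.1, 31.0 and 26.4 CPM in Biotin-. Bub1 and Bub1b, both of the spindle assembly checkpoint, stood at 19.1, 42.4 and 20.1 CPM in Biotin+ and 21.3, 27.8 and 21.9 CPM in Biotin-, and at 33.9, 60.6 and 24.9 CPM in Biotin+ and 47.5, 46.4 and 35.9 CPM in Biotin-, respectively. Ttk (Mps1), a checkpoint kinase and one of the 3 lowest genes per length, stood at 4.96, 7.5 and 2.91 CPM in Biotin+ and 7.05, 7.46 and 6.43 CPM in Biotin-. None of the 6 kinases passed the test, with log2 fold changes from -0.45 for Ttk to 0.27 for Aurkb.

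The 2 regulators of the anaphase-promoting complex spread widely over the Biotin+ libraries. Ube2c, the ubiquitin-conjugating enzyme of the complex, stood at 43.5, 169 and 33.7 CPM in Biotin+ and 64.7, 75.8 and 56.7 CPM in Biotin-. Biotin+ replicate 2 was 4.38-fold the mean of the other Biotin+ libraries, the highest such ratio of the 34 genes, while replicates 1 and 3 were below every Biotin- library (log2 fold change 0.32 ± 0.51 (SE), edgeR adjusted p = 0.766). Cdc20, the activator that selects cyclin B for destruction, stood at 32.9, 100.3 and 33.1 CPM in Biotin+ and 76.9, 69.9 and 85 CPM in Biotin-, again with Biotin+ replicate 2 above all Biotin- libraries and replicates 1 and 3 below them (log2 fold change -0.48 ± 0.39 (SE), edgeR adjusted p = 0.506).

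Of the 6 kinesins, Kif11, which pushes spindle poles apart, stood at 66.7, 80.3 and 45.4 CPM in Biotin+ and 44.5, 58.7 and 41.2 CPM in Biotin- (log2 fold change 0.41 ± 0.25 (SE)). Kif15, which assists it, stood at 23.1, 37.1 and 19.4 CPM in Biotin+ and 22.0, 24.2 and 18.2 CPM in Biotin-, and the chromokinesin Kif4 at 27.0, 31.9 and 13.9 CPM in Biotin+ and 17.9, 18.0 and 13.5 CPM in Biotin-. These 3 were higher in Biotin+ in each pair of equally numbered libraries, without passing the test. Kif20a and Kif23, both of the central spindle, stood at 5.61, 14.3 and 5.09 CPM in Biotin+ and 11, 12.0 and 8.54 CPM in Biotin-, and at 38.3, 46.1 and 25 CPM in Biotin+ and 34.8, 34 and 32.2 CPM in Biotin-. Kif2c, a microtubule depolymerase at centromeres, stood at 11.6, 22.8 and 13.7 CPM in Biotin+ and 17.6, 17.8 and 17.1 CPM in Biotin-. For Kif20a and Kif2c, Biotin+ replicates 1 and 3 were below all Biotin- libraries, and for Kif23 only Biotin+ replicate 3 was.

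Of the 7 centromere and kinetochore genes, Cenpa, the histone H3 variant of centromeres, stood at 117, 225 and 144 CPM in Biotin+ and 97.5, 134 and 124 CPM in Biotin-. Ndc80, Nuf2 and Spc25 belong to one complex that binds microtubules, and they did not share one pattern: Ndc80 stood at 17.0, 35.4 and 25.4 CPM in Biotin+ and 16.5, 21.8 and 12.5 CPM in Biotin-. Spc25 stood at 12.7, 26.7 and 9.33 CPM in Biotin+ and 7.05, 12.0 and 8.70 CPM in Biotin- (log2 fold change 0.81 ± 0.40 (SE), edgeR adjusted p = 0.258), and Nuf2 at 12.6, 23.5 and 11.2 CPM in Biotin+ and 14.4, 20.1 and 12.4 CPM in Biotin- (log2 fold change 0.01 ± 0.33 (SE)). Cenpa, Ndc80 and Spc25 were higher in Biotin+ in every pair, and Nuf2 in the second pair alone. Cenpe, a kinetochore kinesin, stood at 16.5, 20.1 and 15.1 CPM in Biotin+ and 20.0, 20.1 and 19.5 CPM in Biotin-, and Cenpf, a large kinetochore protein that gathers in G2, at 10.6, 13.3 and 8.05 CPM in Biotin+ and 18.1, 13.7 and 16.9 CPM in Biotin-. All 3 Biotin+ libraries were below all Biotin- libraries for Cenpf (log2 fold change -0.61 ± 0.28 (SE), edgeR adjusted p = 0.222). For Cenpe, Biotin+ replicate 2 reached the Biotin- libraries. Birc5 (survivin), of the chromosomal passenger complex, stood at 49.1, 101 and 35.1 CPM in Biotin+ and 41.7, 53.6 and 40.8 CPM in Biotin-, with only Biotin+ replicate 2 above all Biotin- libraries.

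Of the spindle proteins, Stmn1 (stathmin, which destabilises microtubules) was the gene with the highest log2 fold change of the 34. It stood at 202, 395 and 162 CPM in Biotin+ and 123, 178 and 106 CPM in Biotin-. Biotin+ replicates 1 and 2 were above all Biotin- libraries and replicate 3 was within their range (log2 fold change 0.90 ± 0.33 (SE), edgeR adjusted p = 0.134). With the block it was higher in Biotin+ (0.83 ± 0.18 (SE), edgeR adjusted p = 0.00454). Tpx2, which activates Aurora A on the spindle, stood at 43.2, 88.1 and 28.7 CPM in Biotin+ and 51.7, 54.1 and 42.8 CPM in Biotin-. Nusap1, a microtubule-bundling protein, stood at 28.7, 85.1 and 18.7 CPM in Biotin+ and 23.4, 42.2 and 22.9 CPM in Biotin-, and Hmmr, a spindle protein also known as the hyaluronan receptor RHAMM, at 9.22, 23.4 and 6.30 CPM in Biotin+ and 13.6, 16.5 and 11.5 CPM in Biotin-. All 3 were highest in Biotin+ replicate 2.

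Besides Anln, the cytokinesis genes were Prc1, which bundles the central spindle, and Ect2, the exchange factor that activates RhoA at the furrow. Prc1 stood at 23.3, 45.9 and 24.2 CPM in Biotin+ and 39.1, 37.3 and 37.1 CPM in Biotin-, and Ect2 at 14.5, 21.0 and 13.7 CPM in Biotin+ and 23.4, 23.8 and 23.4 CPM in Biotin- (log2 fold change -0.52 ± 0.24 (SE), edgeR adjusted p = 0.237). The 3 Biotin- libraries were nearly equal for both genes. All Biotin+ libraries were below them for Ect2, and replicates 1 and 3 were for Prc1. Mki67, the proliferation marker that coats mitotic chromosomes, stood at 186, 152 and 100.4 CPM in Biotin+ and 124, 125 and 61.5 CPM in Biotin- (log2 fold change 0.50 ± 0.31 (SE), edgeR adjusted p = 0.378). Top2a, the topoisomerase that untangles sister chromatids, stood at 217, 343 and 158 CPM in Biotin+ and 194, 257 and 172 CPM in Biotin- (log2 fold change 0.21 ± 0.29 (SE)). Mki67 was highest in Biotin+ replicate 1 and lowest in Biotin- replicate 3, while Top2a was highest in Biotin+ replicate 2 and lowest in Biotin+ replicate 3.

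Set per kilobase of the longest transcript, Stmn1 had the highest level of the 34 genes, at 183 ± 98.6 CPM per kb over all 6 libraries (SD), followed by Cenpa at 95.8 ± 30.2, Top2a at 42.8 ± 13.1 and Cdc20 at 37.0 ± 15.5 CPM per kb. The lowest were Cenpe at 2.34 ± 0.276, Ttk at 2.11 ± 0.629 and Cenpf at 1.21 ± 0.339 CPM per kb. Neighbours in this order lay closer together than the larger of their SDs, except Cenpa above Top2a and Ttk above Cenpf.

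Replicate numbers shared between the groups marked libraries that deviated together. Across all tested genes, deviations of equally numbered libraries from their group means correlated at 0.424, 0.272 and 0.430, and those of differently numbered libraries at -0.107 to -0.304. These are descriptions over 13360 genes, which are not independent. Deviations from a group mean cancel out within the group, so the negative correlations follow in part from the positive ones. Within the pairs, 13 of 34 genes were higher in Biotin+ for number 1, 29 for number 2 and 8 for number 3. Of all tested genes, 54.2%, 49.1% and 54.0% were higher in these pairs. The median differences were -0.20, 0.50 and -0.36 (log2 CPM), beside 0.05, -0.01 and 0.06 over all tested genes. So the pairs did not share one direction for these genes as a group, and the SD of the 3 medians was 0.458. Gene by gene, Kif11, Kif15, Kif4, Cenpa, Ndc80, Spc25, Stmn1 and Mki67 (8 of 34) were higher in Biotin+ in all 3 pairs. Ccnb1, Cenpe, Cenpf, Anln and Ect2 (5) were lower in all 3, and 21 were mixed. In pair 2 Cenpe was nearly equal (20.06 CPM in Biotin+ and 20.07 in Biotin-), and Cenpf was close (13.3 and 13.7 CPM). The share of all tested genes with 1 direction in all 3 pairs was not computed, so these counts are description only. With the block, 1 gene was called higher (Stmn1, against 5.6% of all tested genes) and 2 lower (Anln and Ccnb1, against 12%).

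**Figure D3:**
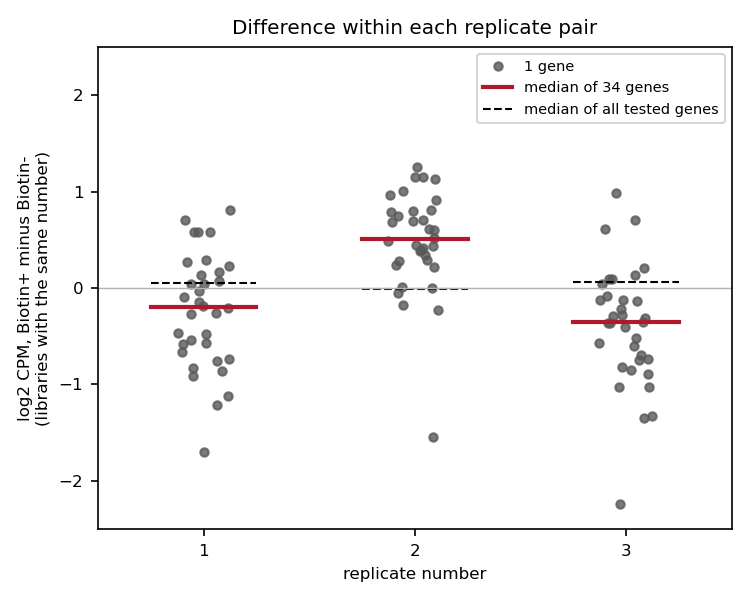
Difference in log2 CPM between the Biotin+ and Biotin- libraries of the same replicate number. Each grey point is 1 of the 34 genes, red lines are their medians (-0.20, 0.50 and -0.36) and dashed lines the medians of all tested genes. Number 2 lies mostly above 0 and number 3 mostly below.

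Without Biotin+ replicate 2, the log2 fold change was lower for 33 of 34 genes, 7 were positive in place of 20, and the median was -0.39 in place of 0.11, beside 0.02 for all tested genes. Then 3 genes were called lower and 0 higher, against 2.63% and 0.42% of all genes tested: Anln (-1.84 ± 0.30 (SE), edgeR adjusted p = 0.0379), Ccnb1 (-1.27 ± 0.20 (SE), edgeR adjusted p = 0.0367) and Cdc20 (-1.26 ± 0.18 (SE), edgeR adjusted p = 0.0337). The 7 positive genes were Kif11, Kif4, Cenpa, Ndc80, Spc25, Stmn1 and Mki67. Without number 2 of both groups and with the block, an alternative added after the data were seen, 11 were lower (Anln, Aurka, Bub1b, Ccnb1, Cdc20, Cenpf, Ect2, Plk1, Prc1, Tpx2 and Ube2c, against 14.9% of all) and 2 higher (Mki67 and Stmn1, against 8.55%). Without Biotin+ replicate 3 the median was 0.39, and Stmn1 was called higher, against 1.23% of all genes tested. The direction of the list as a whole therefore differed with the Biotin+ library left out.

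Biotin+ replicate 2 differed from its group in other measures as well. Its TMM factor was 0.815, against 0.980 to 1.13 in the other libraries, and ribosomal protein genes held 16.5% of its counts, against 11.6% to 12.8%. Its level over the mean of Biotin+ replicates 1 and 3 had a median log2 difference of 1.0 for the 34 genes (33 positive), 0.82 for the other mitosis genes, 0.88 for S phase genes, 0.43 for CD8 T identity genes, 0.71 for ribosomal protein genes and -0.01 for all tested genes. Only 3.49% of all tested genes exceeded the median of the 34. A difference of at least 2-fold was seen for 17 of 34 genes and for 4.91% of all tested genes. The largest were Ube2c at 2.13, Nusap1 at 1.86, Cdk1 at 1.80 and Plk1 at 1.72, and the smallest were Anln at -0.28, Mki67 at 0.15 and Cenpe at 0.34 (log2). Shorter transcripts had larger values (Spearman rho -0.483 over the 34 genes and -0.461 over 12840 tested genes, which share their libraries and are not independent). After the trend with length over all genes was taken out, the median of the 34 was 0.97. With the GC content of the transcript, rho was 0.428 over the 34 genes and 0.095 over the 12840. The part of length or GC content in the difference was not tested. Within Biotin- too, replicate 2 was the highest of 3 for 26 of 34 genes, a count whose share over all tested genes was not computed. Its median log2 difference from the mean of Biotin- replicates 1 and 3 was 0.26 for the 34 genes. The same median was 0.43 for S phase genes, 0.49 for CD8 T identity genes and -0.003 for all tested genes.

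**Figure D4:**
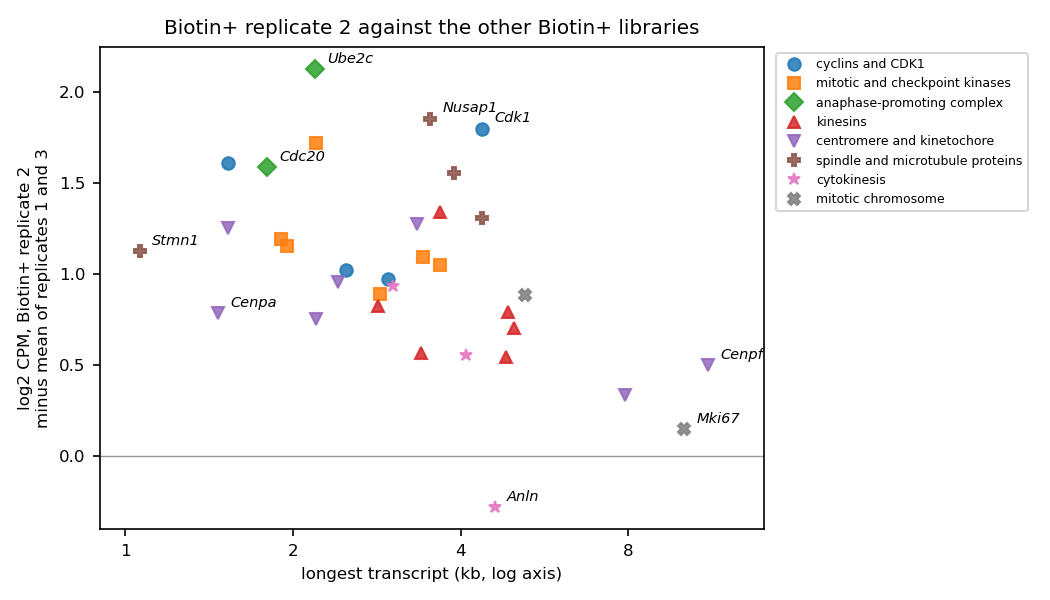
Log2 CPM in Biotin+ replicate 2 minus the mean of Biotin+ replicates 1 and 3 for each of the 34 genes (vertical axis) against the length of its longest transcript (log axis). Colours and symbols are roles. Ube2c is highest at 2.13, Mki67 and Cenpf, the longest transcripts, lie near the bottom, and Anln is the single gene below 0.

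The direction of many members depended on the scaling. When libraries were scaled to the CD8 T identity genes, the median of all tested genes moved by -0.78 (log2), 33 of the 34 genes were negative (Stmn1 excepted) and 12 were called lower: Anln, Aurka, Bub1b, Ccnb1, Cdc20, Cenpe, Cenpf, Ect2, Kif20a, Kif2c, Prc1 and Ttk (edgeR adjusted p under 0.05). That is 12 of 34 against 29.3% of all tested genes, and the median of the 34 was -0.71 beside -0.72 for all genes. Higher genes made up 18.6% of all calls under TMM and 0.533% under this scaling. With the block as well, 22 were lower, against 60%. Under scaling to library size alone the shift was -0.20, 14 of 34 genes were positive and 2 were lower (Anln and Ccnb1), against 6.68%. Without the filter on low counts 1 was higher and 2 were lower, against 1.77% and 6.69%. With offsets for transcript length and the block, 2 were higher (Mki67 and Stmn1) and 2 lower, against 7.92% and 13.1%. The 14 genes that were negative under TMM, Anln and Ccnb1 among them, were negative under each of the 5 scalings. Stmn1 alone was positive under each.

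Ratios within a library do not depend on scaling, apart from the pseudocount in those taken as log2 differences. In all 10 were computed, chosen after the values had been seen, so they carry no test. The groups did not overlap in 8 of them and overlapped in 2. The 8 are not separate results, since most share the same sums. For S phase over identity genes the gap was small, from 43.7% in Biotin+ replicate 2 to 43.8% in Biotin- replicate 2. How often ratios of other genes separate the groups was not computed. The summed level of the 34 genes was 0.568, 0.556 and 0.442 of that of 20 S phase genes in Biotin+ and 0.692, 0.632 and 0.661 in Biotin-, with means of 0.522 ± 0.0695 and 0.662 ± 0.0297 (SD, n = 3 each). All Biotin+ libraries, replicate 2 included, were below all Biotin- libraries. Without Anln the ratios were 0.562, 0.554 and 0.437 against 0.665, 0.618 and 0.627, again without overlap. The 68 other mitosis genes over the same S phase genes gave 1.93, 1.82 and 1.64 in Biotin+ and 2.10, 1.88 and 2.23 in Biotin-, which overlapped. As a percentage of the summed CD8 T identity genes, the 34 genes stood at 17.9%, 24.3% and 14.3% in Biotin+ and 30.8%, 27.7% and 30.9% in Biotin-. The divisor itself differed, at 8176, 9155 and 8316 CPM in Biotin+ and 5234, 6412 and 4987 CPM in Biotin-. When libraries were scaled to the identity genes, 6.44% of all tested genes were positive, so lower percentages are not particular to the 34 genes. The sums of the 34 genes rest on the most abundant ones, led by Top2a, Stmn1 and Cenpa.

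**Figure D5:**
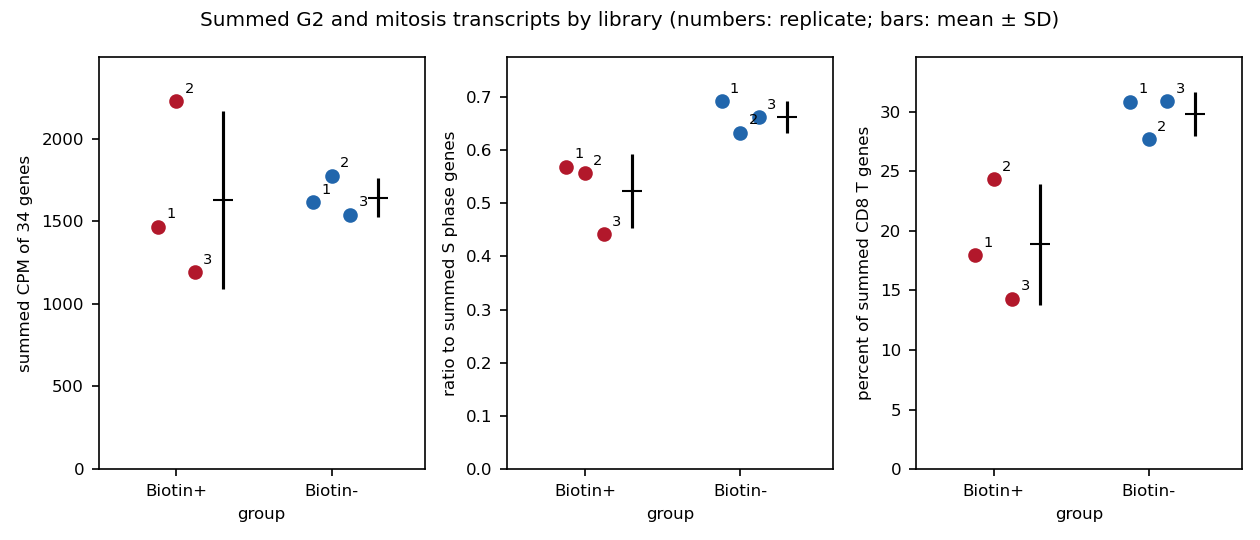
Summed CPM of the 34 genes per library (left), the same sum divided by that of 20 S phase genes (middle), and as a percentage of that of 15 CD8 T identity genes (right). Points are libraries with their replicate numbers and bars are mean ± SD over 3 libraries. The groups overlap on the left and are separate in the middle and right panels. In the middle and right panels the mean of the divisor itself was higher in Biotin+, and in the right panel the divisors did not overlap.

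The S phase genes, among them those of the replicative helicase and of nucleotide synthesis, were all positive under TMM (20 of 20, median log2 fold change 0.62, range 0.23 to 0.87), and 0 passed the test with edgeR (6 higher at an unadjusted p under 0.05, against 8.62% of all tested genes; DESeq2 0, limma-voom 0). With library size alone 19 were positive, and with CD8 T identity scaling 2 were, with a median of -0.23. Of the 34 mitosis genes, 20 were below the lowest S phase gene and 32 below the S phase median. The median over all tested genes, 0.06, lay below both values too. The share of all tested genes below them was not computed, so these counts are not particular to the 34 genes. Rrm2, a subunit of ribonucleotide reductase, stood at 106, 160.2 and 86.8 CPM in Biotin+ and 70.5, 90.9 and 49.5 CPM in Biotin-, and Mcm3, of the helicase, at 219.9, 416 and 251 CPM in Biotin+ and 169.5, 226 and 162 CPM in Biotin-. With the block 5 of the 20 were higher, Mcm2, Mcm3, Pcna and Rrm2 among them, against 5.6% of all tested genes. Without Biotin+ replicate 2 the median was 0.14 and 16 were positive.

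A second list of 68 mitosis genes was written from textbook knowledge, but with earlier results of these data known, so it is no independent check. It had 0 genes called by edgeR (unadjusted p under 0.05 for 5 higher and 2 lower, against 8.62% and 13.9% of all tested genes; DESeq2 1 higher, limma-voom 0). Its median log2 fold change was 0.14 with 48 positive, and without Biotin+ replicate 2 it was -0.20 with 17 positive, so its median changed sign as that of the 34 genes did. It was also negative with library size alone (-0.11) and with CD8 T identity scaling (-0.69). Its smallest p-values belonged to Lmnb1, of the nuclear lamina (log2 fold change 0.61 ± 0.22 (SE), edgeR adjusted p = 0.120), Tubb4b, a beta tubulin (0.54 ± 0.21 (SE)), Kpna2, a nuclear import receptor (-0.53 ± 0.20 (SE)), and Fam83d, a spindle protein (0.58 ± 0.22 (SE)). With the block 4 of 68 were higher (Lmnb1, Cenpw, Incenp and Ncapd2), at the background of 5.6% of all tested genes. Foxm1, the transcription factor of these promoters, stood at 49.8, 59.3 and 36.0 CPM in Biotin+ and 53.1, 47.1 and 47.0 CPM in Biotin-, and Mybl2, which encodes B-MYB, at 32.3, 69.3 and 36.3 CPM in Biotin+ and 34.6, 35.6 and 34.8 CPM in Biotin-. Both were named after their values were seen, and neither passed.

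Of 20 genes of G1 and of CDK inhibition, 2 were higher and 1 lower (edgeR adjusted p under 0.05), against 1.53% and 6.72% of all tested genes. Ccnd3, the D-type cyclin of lymphocytes, stood at 133, 201 and 163 CPM in Biotin+ and 93.2, 93.1 and 91.1 CPM in Biotin- (log2 fold change 0.84 ± 0.20 (SE), edgeR adjusted p = 0.0297), and its partner kinase Cdk6 at 110.3, 130.4 and 166 CPM in Biotin+ and 64.9, 93.5 and 59.1 CPM in Biotin- (log2 fold change 0.90 ± 0.24 (SE), edgeR adjusted p = 0.0438). Both calls were lost when some single libraries were left out: Ccnd3 without any one except Biotin+ replicate 1 (edgeR adjusted p up to 0.125), and Cdk6 without Biotin+ replicate 2 or 3 or Biotin- replicate 1 or 3 (up to 0.192). With CD8 T identity scaling neither passed (edgeR adjusted p = 0.904 for Ccnd3 and 0.589 for Cdk6). Ccnd1, a D-type cyclin abundant in non-lymphoid cells, stood at 23.7, 15.8 and 33.5 CPM in Biotin+ and 107, 73.5 and 134 CPM in Biotin- (log2 fold change -2.11 ± 0.31 (SE), edgeR adjusted p = 0.00657). It was lower in every Biotin+ library, as were the fibroblast and endothelial markers in sum, and their part in it was not tested. Cdkn2a, an inhibitor of CDK4 and CDK6, had low levels, at 4.10, 4.69 and 3.15 CPM in Biotin+ and 1.75, 1.59 and 0.487 CPM in Biotin-. It did not pass the main test (log2 fold change 1.63 ± 0.55 (SE), edgeR adjusted p = 0.102). With the block it was higher (1.76 ± 0.50 (SE), edgeR adjusted p = 0.0209), and with CD8 T identity scaling it did not pass (edgeR adjusted p = 0.234).

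The sources used here do not state how reads that fit several genes, or strand, were treated, so some of the counts are uncertain. In windows of 75 bases of the GENCODE M21 transcripts, 23.3% of those of Kif20a also occurred in Cdc23, 13.8% of Kif4 in Pdzd11 and 10.8% of Ccna2 in Exosc9. Cdc23 held 288 to 510 counts per library, beside 84 to 229 for Kif20a. Pdzd11 held 252 to 540, beside 229 to 510 for Kif4, and Exosc9 held 277 to 435, beside 666 to 1646 for Ccna2. For Ccnb1 18.9% of windows were shared with pseudogenes, and the partner in the count table held 0 to 2 counts per library. For Stmn1 15.4% were shared with Gm11223 and for Ube2c 10.1% with Tnnc2, which held 0 to 2 counts. Shares were 2.29% to 7.87% for Prc1, Plk1, Cdc20 and Nusap1 and under 1% for the other 24 genes, Anln (0%) among them.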

How the data were processed

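Poly-A RNA of 3 Biotin+ and 3 Biotin- sorted CD8 T cell samples was sequenced. The authors deposited 1 table of unnormalized read counts for gene symbols by sample, per the labels, and its values are whole numbers. The submitters' processing notes list featureCounts 2.0.1, STAR 2.7.10a, Trim Galore 0.6.7, Picard 1.14 and GRCm39 with no roles. Which annotation, strand setting and multi-mapping rule applied is not given in the sources used here. Groups and replicate numbers came from the sample titles, and 0 columns were unmapped.

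No 2 libraries of a group agreed within counting noise (chi-square over its degrees of freedom was 35.6 to 103), so none was taken for a library deposited again. This does not show whether they are technical splits. Genes with no count in any library numbered 18545, and 13360 passed filterByExpr. The main test was edgeR's quasi-likelihood test (edgeR 4.0.16, R 4.3.3, TMM, robust, group only; common biological coefficient of variation 0.311), with Benjamini-Hochberg adjustment over all tested genes. SE is the log2 fold change over the root of F. Log2 CPM use a pseudocount of 0.5 CPM. The main edgeR test was also run on simulated counts. It called 31 of 97 genes changed by a log2 fold of 1 and 84 of 97 changed by 2, with 4 false calls. A gene that did not pass may therefore still differ by 2-fold. The other tests and settings were not run on simulated data. Pairing by replicate number rests on the correlations of deviations given in the report (over the 34 genes 0.455, 0.377 and 0.408), since every one exceeds 0.1. Over the 34 genes, those of differently numbered libraries ran from -0.427 to 0.0982.

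Results were recomputed under 22 alternatives. Of these, 18 were other scalings, filters, DESeq2 1.42.0, limma-voom 3.58.1, the replicate block and left-out libraries. The other 4, added after the data were seen, were the block with CD8 T identity scaling, offsets by transcript length with and without the block, and the block without number 2. Transcript lengths and shared windows came from GENCODE M21 and promoters from RefSeq on GRCm38.p6. The members and lists were chosen with earlier results of these data known, so lists carry counts and medians, with no test. All 34 members may be named, and of each other list up to 4 genes with the smallest p, all that passed where fewer than 6 did, and of marker lists up to 3 abundant genes. Tcrg-C1 and Tcrg-C2 were not analysed here, and some list genes are not reported here.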

Additional observations from a re-analysis of the deposited data

How the results depend on the processing

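Over all tested genes, higher and lower calls numbered 84 and 892 with library size alone, 21 and 3919 with CD8 T identity scaling, 396 and 1495 without the filter on low counts, 471 and 1389 with DESeq2, and 748 and 1599 with the replicate block. They numbered 92 and 8014 with the block and identity scaling, 1058 and 1752 with transcript length offsets and the block, and 1163 and 2020 with the block without replicate 2 of both groups. With 1 library left out they ranged from 23 to 200 and from 239 to 1044, and with number 1, 2 or 3 of both groups left out they were 67 and 385, 46 and 445, and 39 and 588.

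For the 34 genes, higher calls were 1 without the filter, 1 with the replicate block, 2 with length offsets and the block, 2 with the block without replicate 2, and 0 to 1 with libraries left out. Lower calls were 2 with library size alone, 12 with identity scaling (29.3% of all tested genes), 2 without the filter, 2 with the block, 22 with the block and identity scaling (60%), 2 with length offsets and the block, 11 with the block without replicate 2, and 1 to 3 with libraries left out. Their median log2 fold change was -0.71 with identity scaling, -0.79 with the block and identity scaling, and -0.39 to 0.39 with libraries left out.

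Of the 68 other mitosis genes, higher calls were 1 without the filter, 1 with DESeq2, 4 with the block (5.6% of all tested genes), 6 with length offsets and the block (7.92%) and 4 with the block without replicate 2 (8.55%). Lower calls were 1 with library size alone, 20 with identity scaling (29.3% of all tested genes), 38 with the block and identity scaling (60%), 2 with length offsets and the block (13.1%) and 6 (14.9%) with the block without replicate 2.

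With the block and identity scaling, 8 genes became negative and passed: Ccna2 at -0.76, Aurkb at -0.62, Bub1 at -0.67, Ube2c at -0.85, Kif23 at -0.71, Nuf2 at -0.82, Tpx2 at -0.83 and Top2a at -0.63. With the block without replicate 2, Ube2c at -0.72 and Tpx2 at -0.48 did. Of the members' values under alternatives, 588 kept direction and side of the threshold, 47 came to pass, 10 reversed and 103 changed sign without passing. Anln was lower in all of them. The cause of each change was not tested. Ttk, with 48 to 145 counts, had the fewest reads.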
